A study of Mus musculus with 10 samples.

Results

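The semaphorins of classes 3 to 7, their plexin receptors and the neuropilins were followed through a mouse model of gliomagenesis. Members were taken by gene symbol, which gave 31 of the 23230 rows of the expression table: 20 semaphorins, 9 plexins and 2 neuropilins. RNA-seq was performed on 10 cultures in 3 groups. AstroEGFR* (3 libraries) were C57BL/6 cortical astrocytes of postnatal day 5, knocked out for p16/p19 (the Ink4a/Arf locus) and carrying human EGFRvIII, the constitutively active receptor called EGFR*, from a retroviral vector. PT (4 libraries) were glioma propagating cells grown from tumours that such astrocytes formed in CD1 Nude mice, so PT carried the same knockout and transgene. AstroEGFR* Zfp423 (3 libraries) were the 3 astrocyte batches with a further vector expressing Zfp423, a zinc-finger transcription factor. Every culture was below passage 10. PT1 and PT4 descended from AstroEGFR*1, PT2 from AstroEGFR*2 and PT3 from AstroEGFR*3, so the 4 PT libraries stood for 3 independent astrocyte batches and p-values measured the spread between these cultures. The astrocytes were grown in serum and the PT cells in serum-free medium with growth factors on laminin, hence tumour passage and culture medium cannot be told apart in any PT difference below.

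Semaphorins are guidance cues first known for steering growing axons, and they also act on cell migration, blood vessels and immune cells. Class 3 members are secreted, classes 4 to 6 span the membrane, and Sema7a is held there by a lipid anchor. Plexins are the signalling receptors; most class 3 ligands reach them through a neuropilin co-receptor, whereas transmembrane semaphorins bind plexins directly.

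Values are FPKM, fragment counts scaled by transcript length and sequencing depth, and differences are on the scale of log2(FPKM + 1), which understates the change of low genes. The depth of the libraries is unknown, but an estimate from the most common FPKM ratio over scarce features placed AstroEGFR*3 at 0.119 and PT3 at 0.155 of the depth of AstroEGFR*1 Zfp423, against 0.853 to 1.68 for the other libraries. The vector-borne gene matched the labels, since Zfp423 was at 15.7, 9.73 and 105 FPKM in the 3 transduced astrocyte cultures and at 3.25 to 4.30 FPKM in their parents. Cdkn2a, the p16/p19 locus, was listed at 3.96 to 130 FPKM in all libraries, and the deleted part is not given in the sources used here, so it could not check the knockout. Xist was at 20.4 to 34.9 FPKM in the libraries of batch 2 and at or under 0.0403 FPKM in the others. Ddx3y, a Y-linked gene, was at or under 0.114 FPKM in batch 2 and at 14.05 to 57.8 FPKM in the others. Batch 2 thus differed from the rest in sex-linked RNA, and batch and sex cannot be told apart. Plxna3 and Plxnb3 lie on the X chromosome. Astrocyte markers summed to 356 to 963 FPKM in AstroEGFR* and 151 to 684 FPKM in PT (8 genes, Gjb6 listed at 0 throughout), but to 7.22 FPKM in AstroEGFR*2 Zfp423, where Gfap was at 1.11 FPKM and Olig2 was listed at 0. Microglial markers (8 genes) summed to 545 and 352 FPKM in AstroEGFR*1 Zfp423 and AstroEGFR*2 Zfp423, and to between 1.28 and 39.5 FPKM in the other libraries, where single genes gave most of the highest sums (Tmem119 at 38.0 FPKM in AstroEGFR*3 and Cd68 at 36.5 FPKM in PT2). Fibroblast and meningeal markers (8 genes) summed to 5225 FPKM in AstroEGFR*3 and to 4668 and 6454 FPKM in the same pair of Zfp423 cultures, against 4.07 to 524 FPKM elsewhere. Endothelial markers stayed between 0.0827 and 3.35 FPKM in sum, and neuronal markers (8 genes) summed to 28.8 to 74.3 FPKM in AstroEGFR*, 36.1 to 112 FPKM in PT and 21.2 to 66.8 FPKM in the Zfp423 cultures, with Tubb3 at 6.23 to 99.4 FPKM and Rbfox3 at no more than 0.0208 FPKM. Oligodendrocyte-lineage markers (8 genes) summed to 222, 127 and 61.1 FPKM in AstroEGFR*1 to AstroEGFR*3, to 1356, 145, 130.5 and 1648 FPKM in PT1 to PT4 and to 28.3 to 160.1 FPKM in the Zfp423 cultures. By median 7 of the 8 were higher in PT, as were 6 of the 8 neuronal ones, and the part of either list in the PT differences was not tested. In cultures of this kind, fewer cells of a type and less RNA per cell cannot be told apart.

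The comparison of PT with AstroEGFR* asks which members change between astrocytes able to form tumours and the cells of the tumours they formed. The secreted class 3 semaphorins carried the 2 largest differences. Sema3c, a neuropilin and plexin-D1 ligand, fell 15.4-fold in PT, while Sema3a, the prototype repellent of axons, was 8.99-fold higher. Of the 26 members with a mean of at least 1 FPKM, 1 passed an adjusted p of 0.05 (limma with Benjamini-Hochberg adjustment over 12261 features), and 1.24% of all tested features did. Sema3a, Sema3c and Sema7a were the 3 members that differed by at least 1 in the same direction in all 4 within-batch pairs, a criterion met by 4.14% of all features. Without a limit on size, 15 of the 26 members had the same direction in all 4 pairs, and 39.9% of all features did. At an unadjusted p under 0.05, 11 of the 26 members were found, and 13.6% of all features. With the astrocyte batch as a block, 2 members passed (Sema3a and Sema3c), beside 3.87% of all features. Without both libraries of batch 3, those of low estimated depth, the adjusted call was lost, and 8 of all 12156 features were called. The Sema3c difference was -3.92 there. At that setting 5 of 25 members had an unadjusted p under 0.05, beside 10.8% of all features. Without AstroEGFR*3 alone these were 6 of 25 and 10.8%, and 0 members and 54 of all 12128 features were called.

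Sema3c stood at 43.8, 20.6 and 65.0 FPKM in AstroEGFR*1 to AstroEGFR*3. The 4 PT lines held 2.10, 0.475, 4.24 and 0.918 FPKM in the same order. All PT libraries lay below all astrocyte libraries, and the highest PT value was under the lowest astrocyte value by more than the whole PT range. The log2 fold change was -3.94 ± 0.54 (SE, 3 AstroEGFR* and 4 PT libraries), with an adjusted p of 0.02 by limma, and 0.0082 with the batch as a block. An exact two-sided permutation test gave p = 0.0286, the smallest that the 35 assignments allow, without regard to batch. Reassigned within the astrocyte batches (chosen after seeing the data), the labels have 12 arrangements, which allow no p below 0.0833, and 8 members gave that value (Nrp1, Plxna2, Plxnc1, Plxnd1, Sema3a, Sema3b, Sema3c and Sema4g), of 26 tested, as did 20.5% of all features. The within-batch differences were -3.85, -3.87, -3.65 and -4.55 for PT1 to PT4, so the fall was found in each batch. The call did not hold at 0.05 without AstroEGFR*1 (adjusted p = 0.114), without AstroEGFR*3 (0.0802), without PT4 (0.0678) or without both libraries of batch 3 (0.0822), nor without the filter on low values (0.0505) or with PT1 and PT4 averaged (0.0543); the fold change stayed between -4.66 and -3.58 over the 14 alternatives fixed for it.

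Fibroblast and meningeal markers were also lower in PT, 7 of 8 by median and all 8 by mean. Their sum was 333, 524 and 5225 FPKM in AstroEGFR*1 to AstroEGFR*3 and 52.8, 4.07, 404 and 17.3 FPKM in PT1 to PT4. PT3, whose marker sum lay between those of AstroEGFR*1 and AstroEGFR*2, held Sema3c at 4.24 FPKM against 43.8 and 20.6 FPKM in those astrocytes. The sum did not match single markers, since Col3a1 gave 242 of the 404 FPKM in PT3. Col1a1, Col1a2, Lum, Pdgfrb and Col6a3 were lower in PT3 than in both of those astrocyte libraries. Dcn lay between them, and Col3a1 and Fbln1 were above both. PT3 is 1 library of low estimated depth, and the part of these markers in the fall was not tested.

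Sema3a ran the other way. AstroEGFR*1 to AstroEGFR*3 had 1.22, 1.53 and 6.73 FPKM, and the PT lines 17.7, 57.9, 54.2 and 15.4 FPKM (PT1 to PT4). Every PT library exceeded every astrocyte library, and both PT lines of batch 1 were lower than PT2 and PT3. The log2 fold change was 3.17 ± 0.64 (SE), with an adjusted p of 0.0692 by limma without the block and 0.0171 with it (3.41 ± 0.35), and an exact permutation p of 0.0286. The adjusted p ranged from 0.0171 to 0.277 over the alternatives. Within batches Sema3a was higher in PT by 3.08, 4.54, 2.84 and 2.89.

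**Figure D1:**
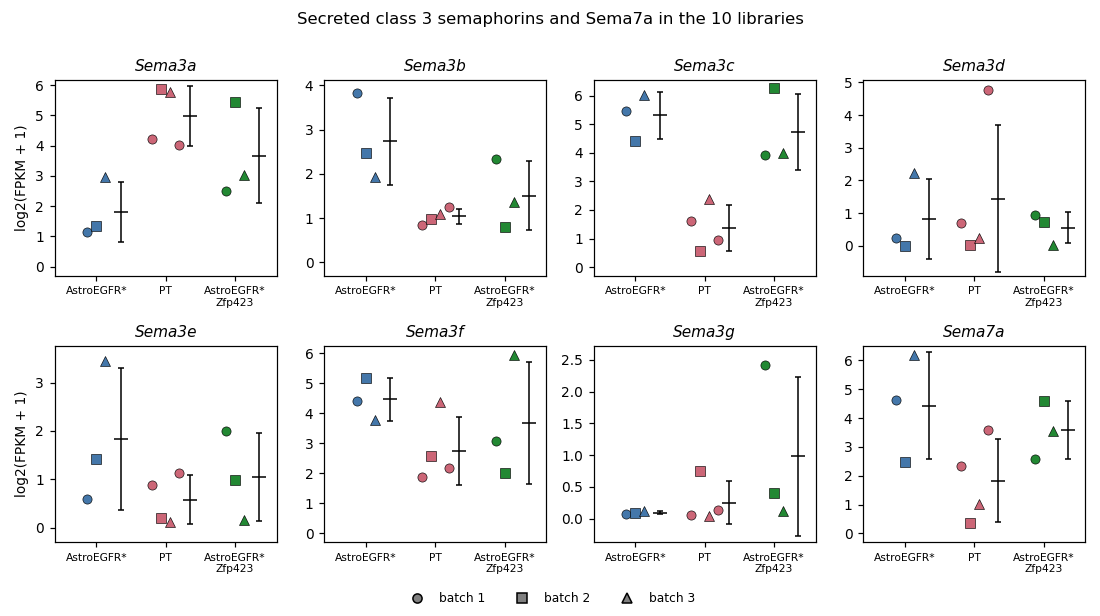
Levels of the 7 class 3 semaphorins and Sema7a in each library, as log2(FPKM + 1) on the vertical axis, with 1 point per library, shapes for the astrocyte batch, and the mean ± SD of each group in black. Sema3a of PT lies above and Sema3c below every AstroEGFR* library, and PT4 alone holds a high Sema3d.

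Sema3a and Sema3c, picked here for the 2 largest differences, reversed their order of FPKM between the groups. The ratios and shares below restate those differences. Neither gene led the class in every library, since Sema3f held 55.6% of all class 3 FPKM in AstroEGFR*2 and Sema3d 54.1% in PT4. Sema3c was 36.0, 13.5 and 9.65 times the FPKM of Sema3a in AstroEGFR*1 to AstroEGFR*3, whereas Sema3a was 8.45, 122, 12.8 and 16.8 times the FPKM of Sema3c in PT1 to PT4. As a share of all class 3 FPKM, Sema3a made up 1.54 to 6.67% in AstroEGFR* and 31.5 to 89.0% in PT. Sema3c made up 32.2 to 64.3% and 0.730 to 8.48%, respectively. The summed class 3 level overlapped between the groups, at 79.1, 64.0 and 101 FPKM in AstroEGFR* and 24.7, 65.1, 79.7 and 48.9 FPKM in PT, as did the shares of the other 5 members, such as that of Sema3f with 12.7 to 55.6% and 7.09 to 24.9%.

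**Figure D2:**
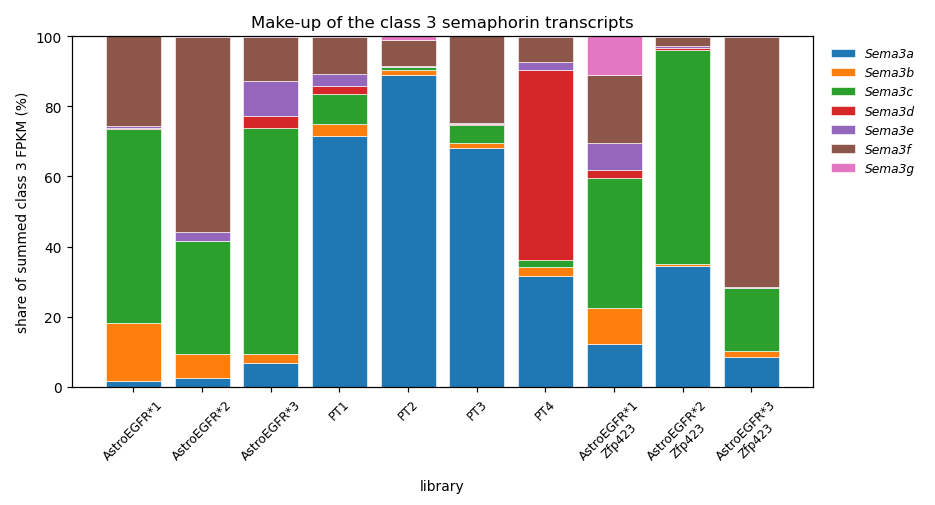
Share of each class 3 semaphorin in the summed class 3 FPKM of a library (%, stacked bars, 1 bar per library). Sema3c and Sema3f fill most of the bar in AstroEGFR*, Sema3a fills 68.0 to 89.0% in PT1 to PT3, and Sema3d takes 54.1% in PT4.

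In the mouse genome Sema3a and Sema3c lie on chromosome 5 together with Sema3d and Sema3e. By the gene order of RefSeq (assembly GRCm38.p6), no other protein-coding gene starts between Sema3d and Sema3a, 3 do between Sema3a and Sema3e, and 15 between Sema3e and Sema3c. The start regions of these 4 genes are shown because Sema3a and Sema3c, which had the largest differences, lie on 1 chromosome with the other two; each runs from 250 bases before to 50 bases after the start of a RefSeq transcript (GRCm38.p6, 5′ to 3′), and capitals mark CpG dinucleotides.
Sema3d, chr5:12382916-12383215, plus strand: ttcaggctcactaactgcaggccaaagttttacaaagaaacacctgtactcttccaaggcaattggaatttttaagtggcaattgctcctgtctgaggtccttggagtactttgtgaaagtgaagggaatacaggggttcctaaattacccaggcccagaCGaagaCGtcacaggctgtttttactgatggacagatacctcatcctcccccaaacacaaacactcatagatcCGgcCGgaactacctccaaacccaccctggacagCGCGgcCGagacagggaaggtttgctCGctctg
Sema3a, chr5:13396534-13396833, plus strand: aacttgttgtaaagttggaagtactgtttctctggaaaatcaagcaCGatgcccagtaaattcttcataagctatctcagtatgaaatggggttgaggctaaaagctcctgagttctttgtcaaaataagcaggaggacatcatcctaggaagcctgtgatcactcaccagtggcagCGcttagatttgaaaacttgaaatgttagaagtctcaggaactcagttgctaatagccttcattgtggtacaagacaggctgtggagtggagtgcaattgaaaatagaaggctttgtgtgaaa
Sema3e, chr5:14025026-14025325, plus strand: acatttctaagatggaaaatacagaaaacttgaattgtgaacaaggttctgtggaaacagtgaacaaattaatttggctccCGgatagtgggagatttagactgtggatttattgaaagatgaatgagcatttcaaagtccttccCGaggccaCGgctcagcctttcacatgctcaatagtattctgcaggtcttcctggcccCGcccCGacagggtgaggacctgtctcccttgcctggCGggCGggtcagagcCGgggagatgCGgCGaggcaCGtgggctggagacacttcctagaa
Sema3c, chr5:17574566-17574865, plus strand: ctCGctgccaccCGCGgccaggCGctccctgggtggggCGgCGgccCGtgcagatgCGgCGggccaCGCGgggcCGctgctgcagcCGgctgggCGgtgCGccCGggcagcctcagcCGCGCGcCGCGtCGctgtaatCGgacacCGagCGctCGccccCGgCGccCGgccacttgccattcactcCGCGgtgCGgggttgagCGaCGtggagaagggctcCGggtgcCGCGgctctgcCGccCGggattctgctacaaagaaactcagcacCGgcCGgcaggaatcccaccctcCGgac
The Sema3c start region held 42 CpG and 75.7% G and C, at the 97.2nd percentile of CpG count among 32851 mouse start regions of 300 bases. The Sema3a region held 2 CpG and 41.3% G and C, at the 18.7th percentile. Sema3d and Sema3e fell between, with 8 and 11 CpG. Start regions were found for 26 of the 31 members, 37 in all, with a median of 15 CpG against 7 over the whole table. A GC box, spelled GGGCGG on either strand, occurred in 27 of the 37 regions and in 35.7% of all regions. No TATAAA was found on either strand in these 37 windows, and 13.6% of all windows held one. These are matches of letters and were not tested for binding.

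Among the other secreted members, Sema3b and Sema3f had lower means in PT. Sema3b, a neuropilin ligand, was at 13.2, 4.50 and 2.79 FPKM in AstroEGFR* and at 0.807, 0.964, 1.12 and 1.37 FPKM in PT. The groups did not overlap, and the difference was -1.70 ± 0.47 (SE), with an adjusted p of 0.154 by limma and an exact permutation p of 0.0286. In all, the groups did not overlap for 6 of the 26 members, against 14.8% of all features. Without AstroEGFR*3 these were 7 of 25 and 22.9%, and without both libraries of batch 3 they were 8 of 25 and 29.7%. Over all 7 libraries, PT was higher in 4 (Plxna2, Sema3a, Sema4c and Sema4g) and lower in 2 (Sema3b and Sema3c), against 6.95% and 7.81%.

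Sema3f, which signals mainly through neuropilin-2, was at 20.2, 35.6 and 12.8 FPKM in AstroEGFR* and at 2.63, 4.90, 19.8 and 3.47 FPKM in PT. PT3 stood inside the astrocyte range, and the difference of -1.72 ± 0.64 (SE) had an adjusted p of 0.298 by limma. Sema3e, a direct plexin-D1 ligand, ranged from 0.515 to 9.97 FPKM in AstroEGFR* and from 0.0870 to 1.19 FPKM in PT, with the highest value in AstroEGFR*3. Sema3d reached 26.5 FPKM in PT4 and was at most 3.67 FPKM in the other 9 libraries, where it was listed at 0 in AstroEGFR*2. PT4 also had the highest Plxnb3 (11.3 FPKM, at most 1.08 FPKM elsewhere) and the highest sum of oligodendrocyte-lineage markers (1648 FPKM, with Sox10 at 117 FPKM against 8.18 FPKM in PT1 and at most 0.104 FPKM in the rest). PT1, with 1356 FPKM on the same list, had Sema3d at 0.602 FPKM and Plxnb3 at 0.844 FPKM. The part of oligodendrocyte-lineage cells in the PT4 values was not tested. Sema3g stayed below 0.7 FPKM in both groups and was not fitted.

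Sema7a, the anchored member that binds plexin-C1 and β1 integrins, was at 23.7, 4.59 and 72.1 FPKM in AstroEGFR* and at 4.03, 0.283, 1.02 and 11.1 FPKM in PT. The ranges overlapped, because AstroEGFR*2 was low, yet each PT line was below its own parent, with differences of -2.29, -2.12, -5.18 and -1.03 for PT1 to PT4. The difference was -2.61 ± 1.02 (SE), with an adjusted p of 0.322 by limma and 0.0913 with the block, and -1.73 without AstroEGFR*3. Its highest value was in AstroEGFR*3, the astrocyte library with the highest fibroblast marker sum, and the part of such cells was not tested.

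Of the 8 transmembrane semaphorins fitted, 6 had a higher mean in PT and 0 passed the adjusted threshold in limma, with 3 at an unadjusted p under 0.05 (Sema4b, Sema4g and Sema5a). Among all features 52.1% had a difference above 0, 1.24% passed the adjusted threshold and 13.6% had an unadjusted p under 0.05. Sema4b, the leading class 4 gene by mean, was at 10.7, 16.7 and 10.1 FPKM in AstroEGFR* and 22.4, 15.7, 17.9 and 20.3 FPKM in PT, a difference of 0.60 ± 0.26 (SE; adjusted p = 0.368, limma). PT2 alone did not exceed the astrocyte range. Sema4g was at 0.763, 0.563 and 1.07 FPKM in AstroEGFR* and 3.81, 1.34, 3.02 and 6.03 FPKM in PT, without overlap, and differed by 1.24 ± 0.42 (adjusted p = 0.258).

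Sema4c, a plexin-B2 ligand, did not overlap between the groups either, with 6.49 to 7.09 FPKM in AstroEGFR* and 8.13 to 22.6 FPKM in PT (0.77 ± 0.35, adjusted p = 0.388, limma), and the difference was 0.50 without PT3. Sema4d, the classical plexin-B1 ligand, overlapped, at 1.34 to 4.98 FPKM and 0.639 to 4.70 FPKM. Sema4a and Sema4f were at or under 1.41 FPKM in all 7 libraries and, like Sema6b (0.230 to 1.42 FPKM in the 10 libraries) and Sema6c (0.357 to 1.29 FPKM), had means below the 1 FPKM required for the fit.

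The class 5 pair, whose extracellular thrombospondin repeats set it apart, held a larger share of Sema5a in each PT line than in any AstroEGFR* library, with near ties between the pair in PT3 and PT4. Sema5a was at 7.49, 12.3 and 3.44 FPKM in AstroEGFR* and 53.4, 11.1, 11.2 and 26.1 FPKM in PT, and Sema5b at 29.1, 15.0 and 21.4 FPKM and 18.4, 0.703, 11.7 and 25.7 FPKM. Sema5a was thus highest in the batch 1 lines, and Sema5b was nearly lost in PT2. Sema5b made up 54.9 to 86.2% of the class FPKM in AstroEGFR*. Sema5a made up 74.4% in PT1, 94.1% in PT2 and 50.4% in PT4, and Sema5b 51.1% in PT3. Neither difference passed, with 1.44 ± 0.62 (SE; adjusted p = 0.365) for Sema5a and -1.10 ± 0.89 (adjusted p = 0.662, limma) for Sema5b. Without PT2 the Sema5b difference was -0.24. Both batch 1 lines, where Sema5a was highest, also had the highest oligodendrocyte-lineage marker sums, whose part was not tested.

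Class 6 members act as both ligands and receptors. Sema6d was at 18.7, 27.7 and 6.39 FPKM in AstroEGFR* and 20.1, 53.7, 58.7 and 29.9 FPKM in PT, and was above its parent in each of the 4 pairs by 0.10, 0.93, 3.02 and 0.65. The difference was 1.25 ± 0.55 (SE; adjusted p = 0.379, limma), and 0.68 without AstroEGFR*3. Sema6a overlapped, at 9.87 to 19.4 FPKM in AstroEGFR* and 14.1 to 24.1 FPKM in PT.

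**Figure D3:**
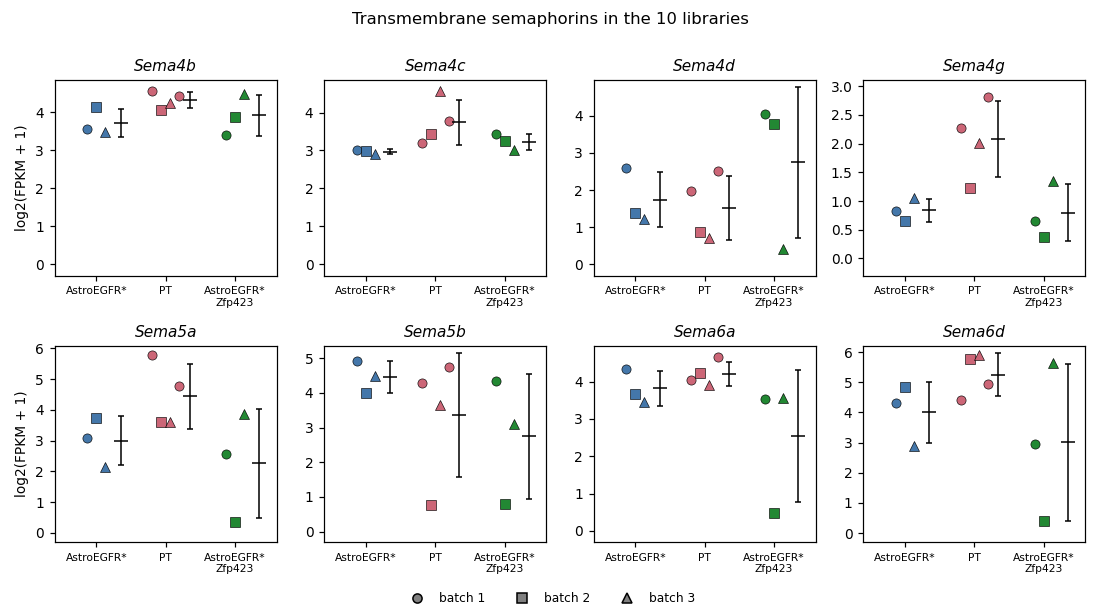
Levels of 8 transmembrane semaphorins in each library, as log2(FPKM + 1), with 1 point per library, shapes for the astrocyte batch, and the mean ± SD of each group in black. Sema4c and Sema4g of PT lie above all AstroEGFR* points, and AstroEGFR*2 Zfp423 has the lowest Sema5a, Sema6a and Sema6d of the 10 libraries.

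On the receptor side the fitted differences lay between -0.93 for Nrp2 (-0.33 without AstroEGFR*3) and 1.22 for Plxnc1, and 0 of the 11 genes passed the adjusted threshold in limma, with 3 at an unadjusted p under 0.05 (Plxna2, Plxnc1 and Plxnd1), beside 1.24% and 13.6% of all features. Plxnb2, a receptor of class 4 semaphorins, was the most abundant member by FPKM in all 10 libraries. It stood at 117, 100.4 and 102 FPKM in AstroEGFR* and at 112, 162, 106 and 79.9 FPKM in PT, at or above the 96.3rd percentile of all features in these 7 libraries. The difference of 0.07 ± 0.29 (SE) was smaller than the spread between PT lines. Plxna1, the main plexin-A, was at 27.4, 23.7 and 21.3 FPKM and 28.0, 25.9, 18.3 and 23.1 FPKM, with a difference of -0.02 ± 0.23 that changed sign when single libraries were left out.

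Plxna2, a receptor of class 3 and class 6 ligands, was at 5.83, 3.63 and 5.16 FPKM in AstroEGFR* and at 10.6, 6.53, 8.61 and 10.4 FPKM in PT. The groups did not overlap and each PT line was above its parent by 0.64 to 0.76, with a fitted difference of 0.77 ± 0.27 (SE; adjusted p = 0.277, limma, and 0.078 with the block). Plxnd1, the receptor of Sema3e and Sema3c, was at 26.0, 13.8 and 12.5 FPKM and 28.6, 21.9, 39.1 and 33.5 FPKM, higher in each pair, with a difference of 0.83 ± 0.33 (adjusted p = 0.323). Plxnc1, the Sema7a receptor, was at 1.97, 0.782 and 0.354 FPKM and 2.86, 7.33, 1.39 and 4.24 FPKM, also higher in each pair, with 1.22 ± 0.50 (adjusted p = 0.343).

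Of the other plexins, Plxna3 was at 3.33 to 4.34 FPKM in AstroEGFR* and 3.97 to 13.0 FPKM in PT. Plxnb1, the Sema4d receptor, was at 11.8 to 31.6 FPKM and 5.43 to 28.3 FPKM, and below its parent in each pair. Plxna4 did not exceed 3.64 FPKM. Nrp1, the co-receptor of Sema3a, was at 36.2, 46.2 and 72.0 FPKM in AstroEGFR* and at 15.3, 37.8, 50.5 and 14.2 FPKM in PT. It was lower than its parent in all 4 pairs, with differences of -1.19 and -1.29 in PT1 and PT4 and of -0.28 and -0.50 in PT2 and PT3, and the difference of -0.93 ± 0.50 (SE) did not pass (adjusted p = 0.478, limma). Nrp2 was at 2.63 to 15.2 FPKM and 0.846 to 4.21 FPKM. Nrp1 gave 78.6 to 98.4% of the neuropilin FPKM in PT.

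**Figure D4:**
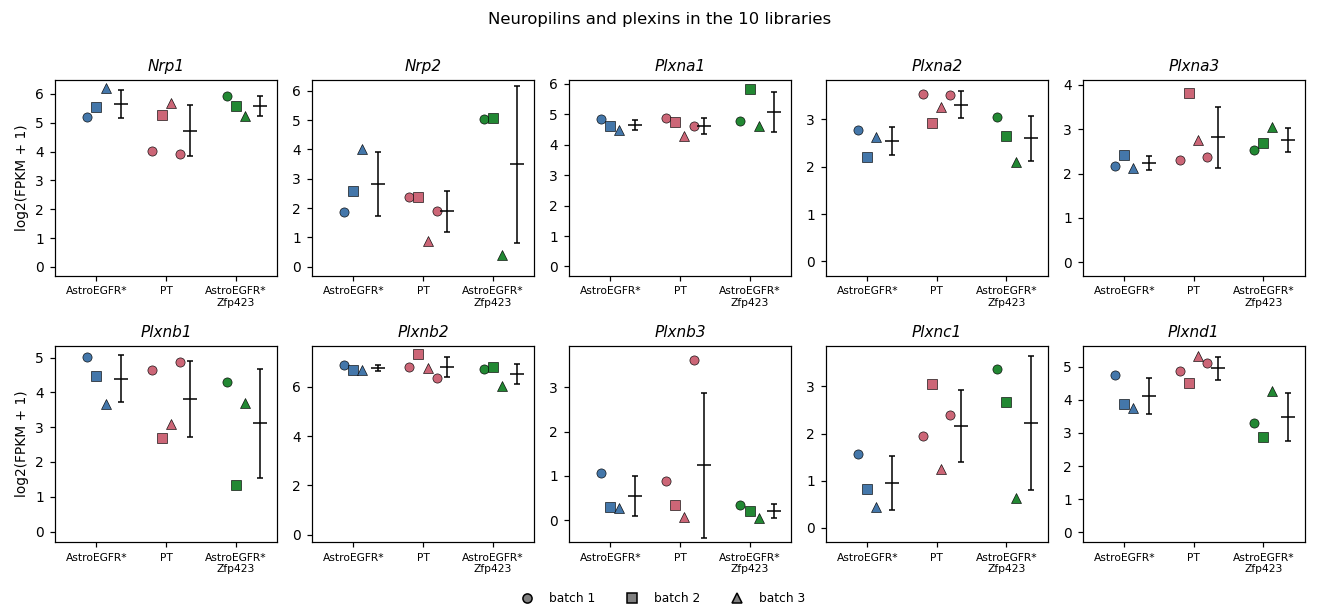
Levels of both neuropilins and 8 of the 9 plexins in each library, as log2(FPKM + 1), with 1 point per library, shapes for the astrocyte batch, and the mean ± SD of each group in black. Plxnb2 and Plxna1 overlap between PT and AstroEGFR*, and Nrp2 is high in AstroEGFR*1 Zfp423 and AstroEGFR*2 Zfp423.

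The list of 35 other genes of the pathway (co-receptors, the processing protease Furin and intracellular transducers) had 31 with a fitted value. In PT, 2 passed the adjusted threshold upwards and 0 downwards, beside 0.318% and 0.922% of all features. The median difference of the 31 was -0.19, against 0.23 for the members and 0.03 for all features. Nrcam, an adhesion molecule that forms part of class 3 receptor complexes, was at 0.451, 0.471 and 2.16 FPKM in AstroEGFR* and at 21.9, 59.8, 20.5 and 20.8 FPKM in PT (3.91 ± 0.47, SE; adjusted p = 0.0134, limma). Fyn, a kinase acting downstream of Sema3a, was at 35.3, 33.7 and 45.5 FPKM and 129, 116, 152 and 171 FPKM (1.86 ± 0.24, adjusted p = 0.0175). Neither gene's groups overlapped. The second largest rise in value, between those of Nrcam and Fyn, was that of the adhesion molecule Chl1, at 0.162 to 0.358 FPKM and 2.84 to 96.8 FPKM (3.58 ± 1.11, adjusted p = 0.204). The greatest falls in value were those of Met, a plexin-B partner at 15.8 to 31.7 FPKM and 0.647 to 9.28 FPKM (-2.97 ± 0.62, adjusted p = 0.0758, and 0.0423 with the block), and of Mical2, an actin-oxidising enzyme, at 6.33 to 55.2 FPKM and 0.375 to 20.4 FPKM (-2.09 ± 1.10, adjusted p = 0.466).

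The second comparison asks what raising Zfp423 does to these genes in AstroEGFR*. No single member moved by at least 1 in the same direction in all 3 batches, a criterion met by 1.22% of all features. With the batch as a block, 0 of the 22 members tested passed an adjusted p of 0.05 in limma, and 0% of the 12366 features did. At an unadjusted p under 0.05, 2 members were found (Sema3b and Sema5b), and 7.38% of all features. The median difference was -0.40 for the members and 0.02 for all features. Leaving out batch 3 gave 10 of 24 members at an unadjusted p under 0.05, beside 14.3% of all features, and leaving out batch 2 gave 2 of 26 (Sema3c and Sema7a in place of Sema3b and Sema5b), beside 5.85%. Without batch 2 there were 51 called features, 0 of them members.

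Sema3b was at 4.07, 0.736 and 1.58 FPKM in AstroEGFR*1 Zfp423 to AstroEGFR*3 Zfp423, below the parents' 13.2, 4.50 and 2.79 FPKM in each batch. The difference was -1.23 ± 0.38 (SE, 3 pairs), with an adjusted p of 0.628 by limma. Sema5b was at 19.3, 0.729 and 7.66 FPKM against 29.1, 15.0 and 21.4 FPKM in the parents, also lower in each batch, with -1.72 ± 0.58 and an adjusted p of 0.628, and -0.97 without batch 2. For Sema3a the transduced cultures were at 4.69, 42.9 and 7.13 FPKM, above their parents by 1.36, 4.12 and 0.07, and the difference of 1.85 ± 0.86 did not pass (adjusted p = 0.642) and was 0.72 without batch 2. Sema3c was at 14.4, 75.8 and 15.2 FPKM, lower than its parent in batches 1 and 3 and higher in batch 2.

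The 3 Zfp423 cultures were far apart in many members. AstroEGFR*2 Zfp423 had the lowest level of the 10 libraries for 7 of the 25 members with a mean over all libraries of at least 1 FPKM (Plxnb1, Plxnd1, Sema3b, Sema4g, Sema5a, Sema6a and Sema6d), and for 15% of all features. There Sema6d was at 0.328 FPKM against 27.7 FPKM in AstroEGFR*2, Sema6a at 0.406 against 11.7 FPKM, and Sema5a at 0.278 against 12.3 FPKM. The summed class 6 level was 1.97 FPKM there against 40.7 FPKM in its parent. In AstroEGFR*3 Zfp423, Sema6d was instead at 48.7 FPKM against 6.39 FPKM, Sema5a at 13.5 against 3.44 FPKM and Sema3f at 60.5 against 12.8 FPKM. AstroEGFR*2 Zfp423 was the library with astrocyte markers near 0, and the part of that in its values was not tested. AstroEGFR*3, the parent in batch 3, had a low estimated depth (0.119 of that of AstroEGFR*1 Zfp423). Its fibroblast and meningeal markers summed to 5225 FPKM, against 229 FPKM in AstroEGFR*3 Zfp423. The part of depth, of these markers and of the Zfp423 level in the batch 3 differences was not tested.

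Nrp2, Sema4d and Plxnc1, picked after their values were seen, were each higher than the parent by more than 1 in batches 1 and 2, as was Sema3a. In batch 3 the 3 genes differed by -3.62, -0.82 and 0.19 and Sema3a by 0.07. Nrp2 was at 31.5 and 32.3 FPKM in AstroEGFR*1 Zfp423 and AstroEGFR*2 Zfp423 but at 0.319 FPKM in AstroEGFR*3 Zfp423, against 2.63, 5.0 and 15.2 FPKM in the parents. Sema4d was at 15.4, 12.7 and 0.330 FPKM against 4.98, 1.63 and 1.34 FPKM. Plxnc1 was at 9.35, 5.41 and 0.543 FPKM against 1.97, 0.782 and 0.354 FPKM. Sema4a, too low for the fit, was at 2.04, 0.572 and 0.0408 FPKM. All 8 microglial markers were above the parent in both of the first 2 cultures, with Csf1r at 202 and 108 FPKM, Aif1 at 30.7 and 8.05 FPKM and Cx3cr1 at 105 and 13.7 FPKM. In AstroEGFR*3 Zfp423 Csf1r was at 0.0686 FPKM, Cx3cr1 at 0.00549 FPKM and Aif1 was listed at 0. Fibroblast and meningeal markers moved in the same way, with 7 of 8 above the parent in batch 1, 7 in batch 2 and 0 in batch 3, and sums of 4668, 6454 and 229 FPKM against 333, 524 and 5225 FPKM. AstroEGFR*3, the parent with the highest Nrp2, had the highest fibroblast sum of the parents, while 7 of its 8 microglial markers were at or under 0.952 FPKM and Tmem119 was at 38.0 FPKM. The part of either list in these genes and in Sema3a was not tested.

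Plxna3 was the fitted member whose groups did not overlap, at 4.75, 5.41 and 7.30 FPKM in the Zfp423 cultures against 3.53, 4.34 and 3.33 FPKM (0.52 ± 0.31, SE; adjusted p = 0.68, limma). The difference was 0.30 without batch 3, and 11.5% of all features showed no overlap. Without batch 2 the groups did not overlap for 5 of 26 members and 36.4% of all features, and without batch 3 for 15 of 24 and 43.7%. Of the other receptors, Plxnb2 was at 105, 109 and 65.0 FPKM in the Zfp423 cultures, Nrp1 at 60.0, 47.1 and 37.0 FPKM and Plxna1 at 26.3, 55.7 and 23.6 FPKM, each overlapping its parents. Plxnd1 was at 8.83, 6.28 and 18.5 FPKM, below its parent in batches 1 and 2 and above it in batch 3. The lowest adjusted p of a fitted member was 0.628 in limma, and Plxna4, Plxnb3, Sema3d, Sema3g, Sema4a, Sema4f, Sema4g, Sema6b and Sema6c were under the filter here. Sema3g reached 4.33 FPKM in AstroEGFR*1 Zfp423 and was at most 0.690 FPKM in the other libraries. Of the other pathway genes, 0 of 31 passed in either direction, 1 had an unadjusted p under 0.05 (Dpysl5, -1.31 ± 0.35, SE), and Nrcam and Fyn differed by 1.06 ± 0.94 and 0.66 ± 0.34. The AstroEGFR* libraries are shared by both comparisons, so their values are given side by side and not compared.

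**Figure D5:**
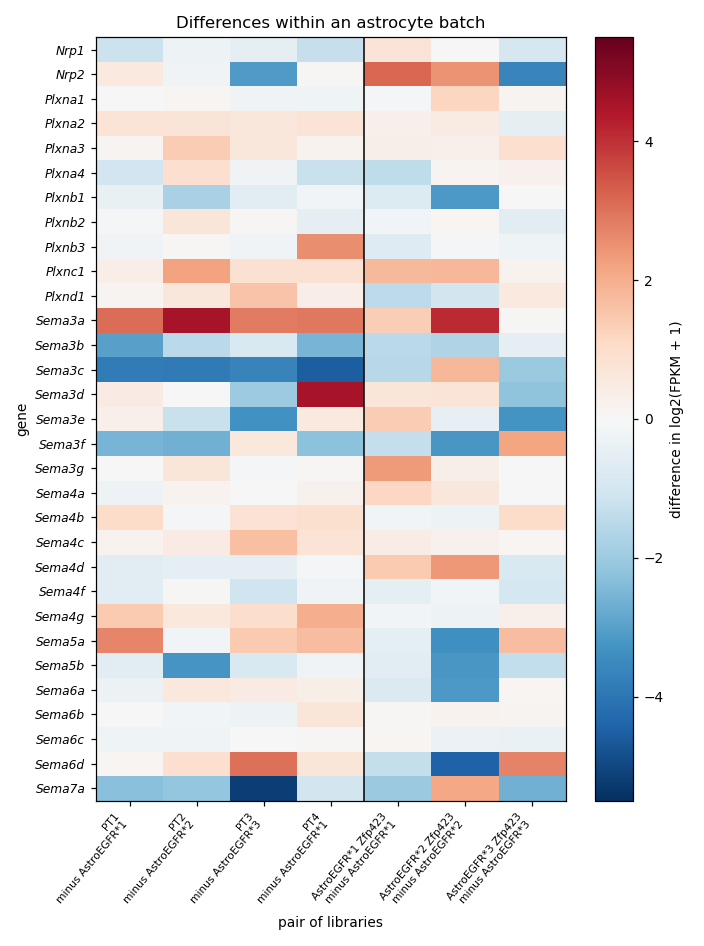
Differences in log2(FPKM + 1) between libraries of 1 astrocyte batch for the 31 members (rows, in alphabetical order of symbol), with the 4 PT pairs left and the 3 Zfp423 pairs right of the black line. Sema3a is higher and Sema3c lower in all PT pairs, and Nrp2, Sema6d and Sema3f take opposite colours among the Zfp423 pairs.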

How the data were processed

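RNA-seq libraries of 10 mouse cultures were used, grouped by their titles. FPKM per gene were computed by the authors with TopHat 1.3 and Cuffnorm against mm9, per the submitters' processing notes, and deposited as 1 matrix of 23230 features with no fragment counts, so count models and depth-based errors were not available. Antisense and overlapping genes may share fragments, since the library kit is described differently in the labels and in the study's methods. Astrocyte batches of PT were taken from the study.

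Members were matched by symbol. FPKM were transformed as log2(FPKM + 1) and fitted with limma 3.58.1 in R 4.3.3 (empirical Bayes with trend) on features averaging 1 FPKM or more in the comparison, with Benjamini-Hochberg adjustment over all of them and a threshold of 0.05. PT was compared with AstroEGFR* without a block. AstroEGFR* Zfp423 was compared with the batch as a block. Deviations of PT libraries from their group mean correlated with those of their own astrocyte batch at 0.346 to 0.499, so the batch pairs these samples. For the Zfp423 cultures the correlations were 0.241, -0.111 and -0.262. Single members were also tested by exact permutation of group labels, two-sided. Alternatives were another pseudocount (0.1), no filter, median-ratio scaling, no trend, all libraries in 1 fit, the other use of the block, PT1 and PT4 averaged, a further limit of 1 on the log2 fold change, and leaving out each library or batch. After the data were seen, batch 3 was left out of the PT comparison, and labels were permuted within astrocyte batches.

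Members, pathway genes and marker lists were chosen with earlier results of these data known. Every member was named. Values per library were given for members with an adjusted or unadjusted p under 0.05, or with groups that did not overlap and a difference of at least 1, and for the leading gene of each class; among other pathway genes, for those past the adjusted threshold and the 2 largest rises and falls. Members discussed beyond that were chosen after their values were seen. Start regions came from RefSeq (GRCm38.p6), matched by symbol, and no coordinates were converted.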

Additional observations from a re-analysis of the deposited data

Results flagged for a closer look

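In a Dixon test of the 4 PT libraries, 3 of the 31 members had 1 library apart from the other three (chance flags about 1 in 20 such groups), beside 16.9% of the 17846 features that varied in PT. Among features with a mean of 1 FPKM or more these were 2 of 26 members and 6.99%. Plxna4 was low in PT3, with a gap of 0.865 of the range. Sema3d was high in PT4, with 0.862, and Sema3g, at 0.0333 to 0.690 FPKM in PT, was high in PT2, with 0.868.

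For 7 members the difference between AstroEGFR* Zfp423 and its parent was at least 1 upwards in 1 batch and at least 1 downwards in another. These were 7 of the 22 members tested, beside 9.35% of the 12366 features. With 1 library per group and batch, these differences between batches were not tested. The highest and lowest batch were 6.78 apart for Nrp2 (3.16, 2.47 and -3.62 in batches 1 to 3), 7.18 for Sema6d (-1.33, -4.43 and 2.75), 5.36 for Sema3f (-1.31, -3.20 and 2.16) and 5.09 for Sema5a (-0.52, -3.38 and 1.71). They were 4.75 apart for Sema7a (-2.04, 2.12 and -2.63), 4.68 for Sema3e (1.39, -0.44 and -3.29) and 3.86 for Sema3c (-1.54, 1.83 and -2.03).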

How the results depend on the processing

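Of the members tested in PT against AstroEGFR*, 1 passed the threshold, and this count was 0 without the filter on low values, 0 with PT1 and PT4 averaged, 0 without both libraries of batch 3 (chosen after seeing the data), 2 with the replicate block, and 0 to 1 when single libraries were left out. The number of features tested rose to 18579 without the filter. Over all features the count was 152, and 475 with the block, 116 without the filter and 82 with all 10 libraries in 1 fit. It was 61 with PT1 and PT4 averaged and 8 without both libraries of batch 3, where Sema3c differed by -3.92. When single libraries were left out it was 7 to 123, lowest without AstroEGFR*1. The cause was not tested. The Zfp423 count of members was 0 in every alternative, with 0 features called in the planned settings other than 51 without batch 2 and 2 with no replicate block. Permuted within batches (chosen after seeing the data), Sema3a, Sema3b and Sema3c went from p = 0.0286 to 0.0833 in the exact test, the smallest each allows. The block changed no other call of a member than that of Sema3a.

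Over 557 recomputed values of single members, 532 kept direction and side of the threshold, 5 (all Sema3c) lost the threshold, 1 (Sema3a) gained it, and 19 reversed, none of them past it. When single libraries were left out, the PT difference ranged from -0.11 to 0.092 for Plxna1, -0.41 to 0.22 for Plxna4, -0.11 to 0.23 for Plxnb2 and -0.55 to 0.21 for Sema4d, and Plxna4 was at 0.20 with a pseudocount of 0.1. When single batches were left out, the Zfp423 difference ranged from -0.46 to 0.37 for Nrp1, -0.57 to 2.82 for Nrp2, -0.13 to 0.36 for Plxna2, -1.79 to 0.14 for Sema3c, -1.87 to 0.48 for Sema3e, -2.26 to 0.42 for Sema3f, -0.21 to 0.43 for Sema4b, -1.95 to 0.60 for Sema5a, -2.88 to 0.71 for Sema6d and -2.33 to 0.043 for Sema7a. Median-ratio scaling shifted the median of all features by under 0.1 and reversed no member. With no fragment counts, low values such as those of Sema3d or Sema3g carry an unknown counting error, largest in AstroEGFR*3 and PT3 if the depth estimate holds.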
